A study of Homo sapiens with 4 samples.

Results

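The regions described here are the m6A peaks of long noncoding RNA (lncRNA) genes other than those with an antisense or divergent suffix in the symbol and a few very abundant lncRNAs. In the deposited peak list of MDA-MB-231 cells, peaks were kept where the gene had the biotype lncRNA in RefSeq, and symbols ending in -AS, -AS plus digits, -DT, -IT or -OT were left out, as were MALAT1, NEAT1, TUG1, NORAD, KCNQ1OT1, SNHG1, GAS5, CYTOR and DANCR. This gave 385 peaks on 215 genes, of 20261 peaks on 10140 gene IDs in the whole list. The suffix part of the rule removed 831 peaks on 477 genes, and 3 of the 9 lncRNAs named in the rule were in the list with this biotype, with 9 peaks. The rule uses biotypes and names and no measured value, though it was drawn up with earlier results of these data known. The rule was read to the letter, so that 4 members with a symbol ending in -IT or -OT plus digits and 2 ending in OS stayed in. Members that lie opposite a coding gene but lack such a suffix also stayed in. Of all gene IDs, 1047 with 1530 peaks had no RefSeq gene of the same symbol, hence no biotype, and lncRNAs among them are not analysed here.

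MDA-MB-231 is an established human cell line of triple negative breast cancer. m6A-seq had been performed on its fragmented poly(A) RNA, with 2 input libraries and 2 libraries immunoprecipitated (IP) with an anti-m6A antibody, all titled shNS. The treatment field of the IP libraries names YTHDC1, and the titles and the protocol, which describe m6A, were followed. The 4 libraries come down to 1 combined value per peak, so that no spread between replicates can be given and no comparison between conditions exists.

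N6-methyladenosine is a base modification that is written co-transcriptionally on adenosines, mostly in a short context that ends in ACT or ACA, and is read by proteins such as the nuclear reader YTHDC1. LncRNAs are transcribed and often spliced and polyadenylated as mRNAs are, but have no long open reading frame. Some act on chromatin, as XIST does on the X chromosome, some are hosts of microRNAs or small nucleolar RNAs (snoRNAs), and many of the genes named LINC have no known role. In mRNAs m6A is known to be dense in long internal exons and near the stop codon, a landmark that lncRNAs lack.

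The stretches of member peaks that lay within a RefSeq promoter window (250 bases before to 50 after a gene start, GRCh38.p14) could be read as sequence. This was done for 16 of the 385 peaks, with a minimum of 60 bases. Printed here are the 4 stretches that fill a whole window of 300 bases, and 1 stretch that shows the bases of the HEIH peak as read from the opposite strand, where LINC00847 had a peak. Each is written 5′ to 3′ on the strand of its peak. Capitals mark GGACT and GAACT or AGACT and AAACT, which are 4 forms of the m6A context and were searched on both strands.
LINC02593, minus strand, chr1:919643-919942: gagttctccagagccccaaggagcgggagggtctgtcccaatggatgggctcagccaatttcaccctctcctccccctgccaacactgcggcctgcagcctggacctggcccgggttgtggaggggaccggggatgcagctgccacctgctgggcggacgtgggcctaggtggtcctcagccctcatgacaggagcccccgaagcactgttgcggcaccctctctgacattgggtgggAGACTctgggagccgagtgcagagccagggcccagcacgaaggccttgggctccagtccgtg
HEIH, minus strand, chr5:180830707-180831006: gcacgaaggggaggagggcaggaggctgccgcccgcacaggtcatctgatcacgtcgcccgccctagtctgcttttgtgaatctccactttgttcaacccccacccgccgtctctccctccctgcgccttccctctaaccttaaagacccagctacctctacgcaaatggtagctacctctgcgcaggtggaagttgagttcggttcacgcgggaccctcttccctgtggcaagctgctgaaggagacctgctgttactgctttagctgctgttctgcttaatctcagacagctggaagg
LINC00847, plus strand, chr5:180830707-180830867: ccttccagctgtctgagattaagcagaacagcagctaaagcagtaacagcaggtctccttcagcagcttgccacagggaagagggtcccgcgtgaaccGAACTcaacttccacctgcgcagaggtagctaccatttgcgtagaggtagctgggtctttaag
GABPB1-IT1, minus strand, chr15:50353924-50354223: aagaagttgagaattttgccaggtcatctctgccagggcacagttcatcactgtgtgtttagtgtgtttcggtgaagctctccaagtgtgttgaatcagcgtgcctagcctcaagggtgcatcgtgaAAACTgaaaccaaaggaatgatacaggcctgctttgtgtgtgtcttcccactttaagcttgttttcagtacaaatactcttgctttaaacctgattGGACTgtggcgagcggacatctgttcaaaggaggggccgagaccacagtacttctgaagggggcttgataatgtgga
ANXA2R-OT1, minus strand, chr5:43017895-43018194: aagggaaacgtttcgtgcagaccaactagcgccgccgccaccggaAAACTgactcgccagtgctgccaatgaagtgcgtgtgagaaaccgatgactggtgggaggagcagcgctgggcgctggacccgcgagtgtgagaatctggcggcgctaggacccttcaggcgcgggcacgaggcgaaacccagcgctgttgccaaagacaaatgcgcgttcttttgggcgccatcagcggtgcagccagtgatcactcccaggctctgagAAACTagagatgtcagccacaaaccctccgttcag

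The LINC02593 stretch held AGACT once, the GABPB1-IT1 stretch held AAACT and GGACT once each, and the ANXA2R-OT1 stretch held AAACT at 2 places. The HEIH stretch held none of the motifs on its own strand and 2 on the other, of which 1 is the GAACT seen in the LINC00847 stretch. Thus 3 of the 4 full windows held a motif on the strand of the peak, and 3 of 4 on the other strand. Only the LINC02593 window is that of the gene of the peak. The HEIH, GABPB1-IT1 and ANXA2R-OT1 windows are those of LINC00847, GABPB1-AS1 and LOC105374748, which lie on the strand opposite to the peak. Over all 17 stretches, shorter ones included, 8 held a motif on the strand of the peak. Among all 35116 RefSeq promoter windows of this length the share with a motif was 62.3% on the strand of the gene and 63.2% on the other. A match is a description of letters, and none of these windows covers a whole peak. Promoter windows lie at gene starts, and the bases of the other member peaks are not shown.

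Each peak carries a score deposited by the authors. It was taken as the peak caller's p-value for IP over input, though the list leaves it unsaid and an FDR is possible, and peaks with smaller scores are called stronger. Read counts and fold enrichment are not part of the list, so the depth behind a peak is unknown. Level of the RNA and degree of methylation cannot be told apart in a score, and a gene without a listed peak may be unmethylated or may be expressed too little. Shares are given with 95% Wilson intervals in parentheses. These cover no more than the counting error of independent peaks, although peaks of 1 gene share their RNA.

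Scores of the members were mostly weak. Their median was 3.7e-05, with quartiles of 9.5e-09 and 0.00056 and a range from 0 to 0.0079, whereas the median of protein-coding peaks was 1.1e-08. A peak was said to reach the list median where its score was 5.2e-08, the median over all peaks, or smaller, which held for 50.02% of all peaks by construction and for 107 of the 385 member peaks. This is 27.8% (23.6 to 32.5), against 52.7% (52.0 to 53.5) of the 17147 protein-coding peaks and 35.4% (32.2 to 38.7) of the 831 peaks of antisense and divergent lncRNAs. Per gene, the strongest peak reached that median in 72 of 215 members, 33.5% (27.5 to 40.0), against 65.2% of protein-coding genes and 47.6% of antisense and divergent lncRNAs. A score of 0, too small to be stored, was listed for 4 member peaks, all on XIST, and for 437 protein-coding peaks (2.55%). The difference in score between biotypes was not tested, and expression, which bears on it, was not measured per gene in this list.

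**Figure D1:**
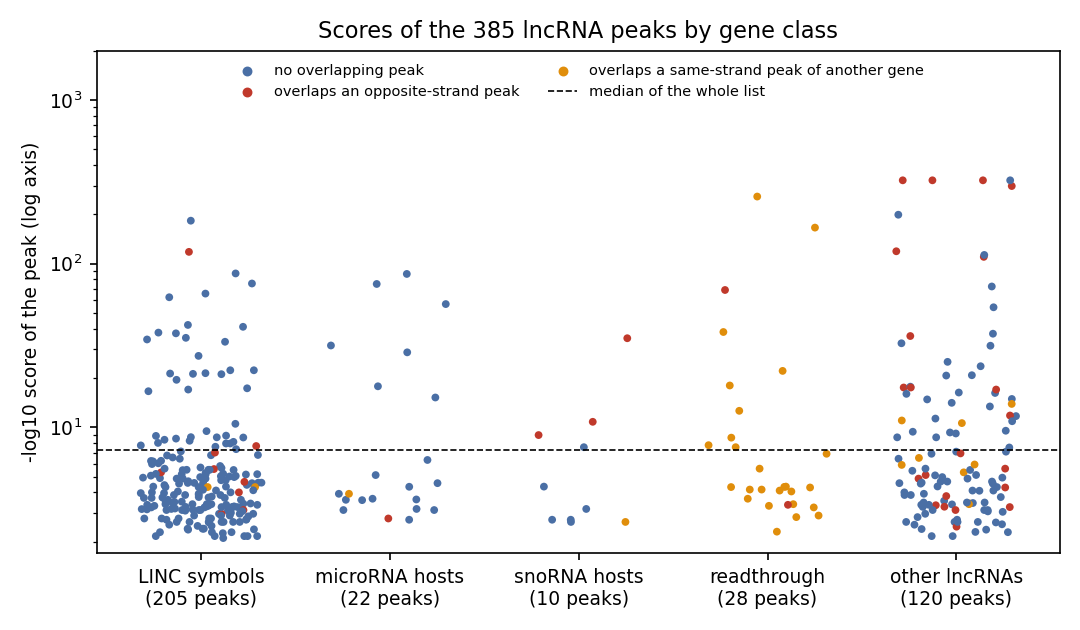
Each point is 1 of the 385 member peaks, placed by class of gene and by the -log10 of its score on a log axis, with scores of 0 drawn at 323. Colours mark peaks that share bases with a peak of another gene, and the dashed line is the median of the whole list. Most peaks of LINC genes lay under the line, and the top of the plot is held by XIST, PCAT1 and the readthrough gene HNRNPUL2-BSCL2.

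XIST, the RNA that coats and silences an X chromosome, had the most peaks and the smallest scores of all members. By peaks and by score it would be named, but the rule for named genes made an exception of it, and it was taken up after its values were seen. Its 9 peaks lay along a span of 32059 bases on the minus strand (chrX:73820656-73852714) and covered 4294 bases. The 4 peaks at the 5′ end had scores of 3.2e-32, 0, 0 and 1e-199 from the first to the last along the RNA. With the span cut into 10 equal parts, the 2 peaks in part 4 had scores of 3.2e-73 and 1e-16, those in parts 8 and 9 had 7.9e-37 and 0, and the peak at the 3′ border had 0. The peaks thus stood in 4 clusters, and each cluster other than that in part 4 held a score of 0. TSIX, the antisense gene of XIST, was listed with peaks over the same bases as the 3 peaks nearest the 3′ end, as described further on.

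PCAT1, a lncRNA first described in prostate cancer, followed with 1e-298 in a peak of 1051 bases (chr8:126556323-126557373), beside a second peak at 0.0023. LINC02593 had 5 peaks with scores from 1e-183 to 6.5e-06, the strongest of 1554 bases being the longest member peak and reaching beyond the start of the gene. HEIH, named for its high level in liver cancer, had peaks at 1e-119 and 1e-110, and LINC00847 on the other strand had 1 at 1e-118. NRAV, known as a negative regulator of the antiviral response, had 1 peak of 1047 bases at 1e-113. LINC03057 had 1 peak at 7.9e-88 and MIR100HG, the host of miR-100, let-7a-2 and miR-125b-1, 1 at 3.2e-87. The readthrough genes HNRNPUL2-BSCL2 (1e-257) and DNAAF4-CCPG1 (1e-166) complete the 10 genes with the smallest score. Among the 10 strongest peaks, 5 shared bases with an opposite-strand peak, 2 with a same-strand peak of another gene and 3 with neither. Among the 100 strongest, 27 shared bases with either kind, against 76 of all 385 member peaks (19.7%, 16.1 to 24.0) and 15.5% of the whole list. The 76 include all 28 peaks of readthrough genes, and the share without them was not computed. Nor was the share among equally strong peaks of the whole list.

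Most members had a single peak. One peak was listed for 125 of 215 genes (58.1%), 2 for 47, 3 for 23, 4 for 10, 5 for 6, 6 for 3 and 9 for XIST. The mean was 1.79 peaks per gene (SD 1.24 over 215 genes), against 2.10 (SD 1.50) over 8176 protein-coding genes, of which 45.0% had a single peak. LINC01547, LINC02693 and LINC00342 had 6 peaks each. In LINC01547 the scores were 2.5e-66 near the 3′ end, 1e-17 near the 5′ end and between 1.1e-05 and 0.00058 in the other 4 peaks. LINC02693 had 2 strong neighbours, 5e-63 and 7.9e-42, and its weakest peak was at 0.00069. LINC00342 and LINC01588, the latter with 5 peaks, had no score under 3e-09 and 3.4e-06, respectively. FENDRR, needed for heart and body wall development in the mouse, had 5 peaks, of which the 2 in the last 10% of the gene had the smallest scores, 2e-12 and 2.1e-09. MIR4435-2HG had 5 with a smallest score of 1.6e-18, and LINC02984 had 5 with a smallest score of 1.8e-05. ZNF625-ZNF20 also had 5, all of them shared with ZNF625 or ZNF20. Many peaks thus did not go with strong peaks in every gene.

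**Figure D2:**
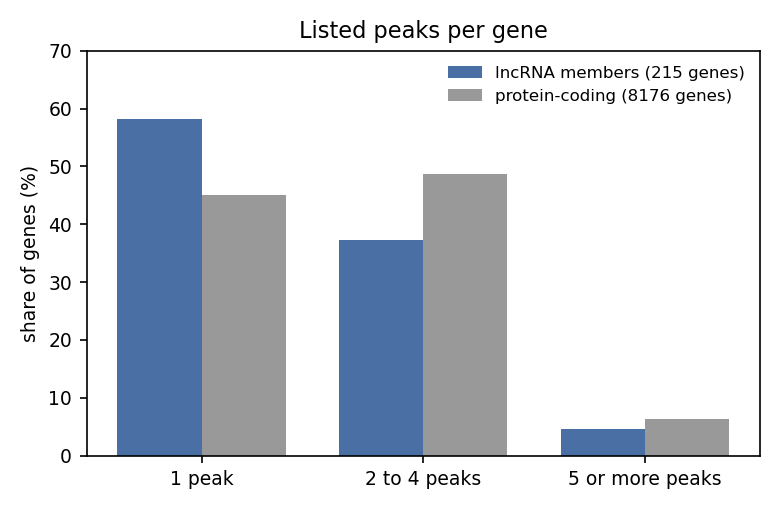
Bars give the share of genes in percent with 1, 2 to 4 and 5 or more listed peaks, for 215 lncRNA members and 8176 protein-coding genes, with no error bars. A single peak was listed for 58.1% of members and 45.0% of protein-coding genes.

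Neighbouring peaks of a gene were close. Over the 90 members with 2 or more peaks there were 161 gaps between neighbours, with a median of 508 bases and quartiles of 209 and 3855 bases. In 94 of them (58.4%, 50.7 to 65.7) the gap was at most 1000 bases, against 49.2% (48.2 to 50.3) of 8786 gaps in protein-coding genes, where the median was 1058 bases. Gaps were taken on the genome, introns included. They depend on the length of the gene, which was not compared between the groups. A further 9 neighbours overlapped each other, as in LINC02593 and HEIH, where the list gives the region in 2 versions. HOTAIR, a scaffold RNA linked to metastasis in breast cancer, is an example of close peaks, with 1.6e-21, 0.0023 and 5.1e-10 in parts 9 and 10 of the gene. MIR1915HG had neighbours at 7.9e-76 and 2e-29 and another peak, at 0.00022, at its start. The median spliced length of a member peak was 181 bases (quartiles 121 and 271), against 211 bases in protein-coding genes, and 350 member peaks (90.9%, 87.6 to 93.4) were in 1 block, against 81.5%.

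For the position along the gene, the midpoint of each peak was placed on the genomic span of the gene in RefSeq, introns included. This could be done for the 319 member peaks that lay wholly inside the span (82.9%, 78.8 to 86.3), against 93.0% of protein-coding peaks. The last 10% of the span held 85 of the 319 peaks, 26.6% (22.1 to 31.8), against 37.4% (36.7 to 38.2) of 15944 protein-coding peaks and 19.1% (16.4 to 22.3) of 679 peaks of antisense and divergent lncRNAs. The first 10% held 43, or 13.5% (10.2 to 17.7), against 12.4% in protein-coding genes. Each of the other 8 parts held between 17 and 39 peaks, the most in part 9. In bases, each distance ran from an end of the span to the nearer edge of the peak. From the 3′ end the median was 2253, and 96 peaks (30.1%, 25.3 to 35.3) were at most 1000 away, against 4049 and 20.6% in protein-coding genes. From the 5′ end the median was 6480 against 19179 bases, with 21.3% (17.2 to 26.1) against 14.0% at most 1000 away. Member peaks were thus nearer to both ends in bases. Such distances depend on the length of the span, which was not compared between the groups. Within spans of at least 10 kb, 38.6% of the member peaks were in the last 10%. The protein-coding share under this limit was not computed, so the 37.4% over all spans is no match for it.

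**Figure D3:**
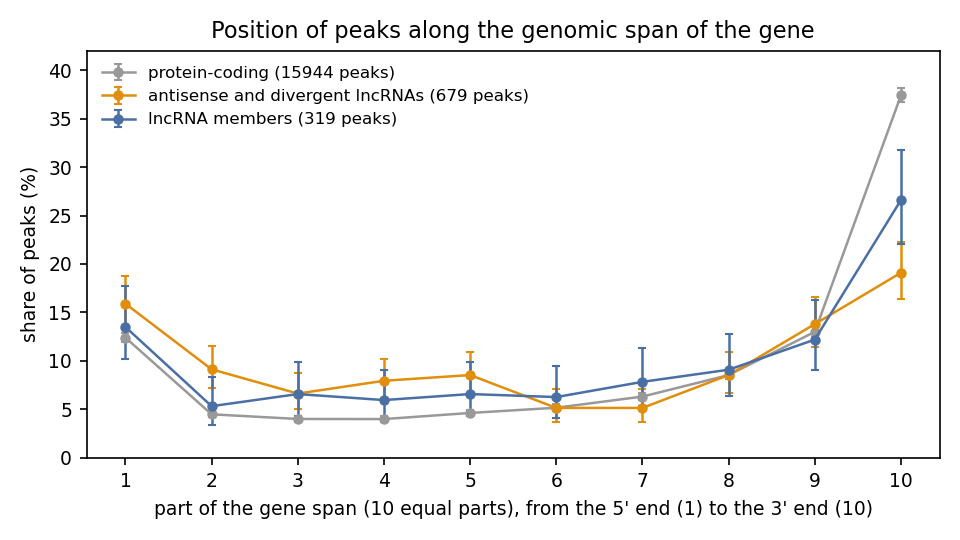
Points give the share of peaks in percent in each of 10 equal parts of the genomic span of the gene, from the 5′ end to the 3′ end, for 319 member peaks, 679 peaks of antisense and divergent lncRNAs and 15944 protein-coding peaks, and bars are 95% Wilson intervals. In the last part the 3 groups held 26.6%, 19.1% and 37.4%, and in the first part 13.5%, 15.9% and 12.4%.

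Of the other 66 member peaks, 46 were wholly outside the RefSeq span and 20 crossed its border. Those outside belonged to 35 genes and were between 12 and 455781 bases from the span, with a median of 7855. In 30 the peak was beyond the 3′ end and in 16 beyond the 5′ end. The farthest was the strong peak of PCAT1, 455781 bases upstream of the RefSeq gene. All 3 peaks of LINC00511, a lncRNA raised in breast tumours (6.3e-36, 1.3e-09 and 0.0017), were at least 193493 bases beyond its 3′ end. The list follows GENCODE v33, whose gene ends were not used here. For the same reason position says nothing of exons.

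Of the members, 317 peaks (82.3%, 78.2 to 85.8) were on the minus strand, against 72.2% (71.5 to 72.9) of protein-coding peaks and 72.3% of the whole list. By gene, 164 of 215 members were on the minus strand (76.3%, 70.2 to 81.5), against 64.9% (63.9 to 65.9) of protein-coding genes. Minus-strand members had 1.93 peaks per gene and plus-strand members 1.33. The list median was reached by 29.0% (24.3 to 34.2) of minus-strand and 22.1% (13.8 to 33.3) of plus-strand member peaks, with intervals that overlapped. In protein-coding genes these shares were 60.9% and 31.4%. The strand of a peak is that of its annotated gene. It was the same as in RefSeq for all 167 members whose strand RefSeq gave. Minus-strand peaks were thus in the majority in the whole list too, and the origin of this was not tested.

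Opposite-strand overlap was found for few members. A peak was counted where its blocks shared at least 1 base with a peak on the opposite strand, which held for 10.0% of all peaks. It held for 37 of 385 member peaks, 9.61% (7.05 to 13.0), against 7.55% (7.17 to 7.96) of protein-coding and 27.3% (24.4 to 30.4) of antisense and divergent lncRNA peaks. The share of members was thus near that of the whole list. By gene, 31 of 215 members (14.4%) had such a peak, against 12.3% of protein-coding genes and 36.9% of antisense and divergent lncRNAs. In 20 members (9.30%) every peak was of this kind, against 4.93% and 24.7%. By strand, the overlapping peaks were 17 of the 68 plus-strand member peaks (interval 16.2 to 36.4%) and 20 of the 317 on the minus strand (6.31%, 4.12 to 9.54), and the whole list was split likewise, with 17.8% against 7.07%, as were protein-coding peaks, with 12.0% against 5.83%. Of the stronger members, those that reached the list median, 16 of 107 peaks (15.0%) overlapped. The share among all peaks that reached it was not computed.

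Of the 37 pairs of overlapping peaks, the partner was a protein-coding gene in 17, a lncRNA in 6, a pseudogene in 4, TSIX in 3 and a gene without a RefSeq match in 7. In 4 pairs both genes were members. In 26 pairs the shared stretch was at least 90% of the shorter peak, and in 18 of these (69.2%) the -log10 scores lay no more than 10% apart, counting 2 pairs that were listed at 0 on both sides and cannot be ordered. The same share over all overlapping pairs of the list was not computed, so closeness of scores is not shown to be particular to members. The largest overlap, 1107 bases, was between CTC-338M12.4 (3.2e-18) and TRIM52 (4e-18), a coding gene of the tripartite motif family. PCAT1 shared 1048 of its 1051 bases with a peak of the coding gene LRATD2, and the scores were 1e-298 and 1e-296. FTX, a lncRNA of the X inactivation centre, and the pseudogene RAB11FIP1P1 shared 851 bases at the same score, 1.6e-12. XIST and TSIX shared 750 bases and 600 bases where both were listed at 0, and 291 bases at 7.9e-37 for XIST and 1.6e-35 for TSIX. LINC00847 and HEIH, both members, shared 738 bases at 1e-118 and 1e-119. This is the locus whose bases are printed from both strands above. SNHG8, a snoRNA host, covered the whole of a PRSS12 peak of 541 bases, at 1e-35 and 5e-34. LINC00339 (2.1e-08) shared 324 bases with CDC42-AS1 (3.8e-09), and FAM88B (1.4e-05) shared 318 with LERFS (7.9e-06), another member. A second TRIM52 peak, at 3e-09, lay within the CTC-338M12.4 peak and completes the 10 largest overlaps.

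In other pairs the scores were far apart, and then the member was not always the weaker. Of the 16 pairs whose -log10 scores differed by more than 10%, the member had the smaller score in 8 and the partner in 8. A small peak of EMSLR (0.00076) lay wholly in a peak of the coding gene IFT22 at 2.5e-68. FLJ40194 (0.00046) shared 51 bases with a ZNF652 peak at 5e-39. On the other side, an XIST peak listed at 0 contained a peak of 85 bases at 0.0063 on the plus strand. THRIL, a lncRNA linked to TNF expression, was the weaker in its pair, at 3.2e-18 against 3.2e-25 for its coding partner BRI3BP. By contrast, JPX, an activator of XIST, and FTX shared 151 bases at close scores, 0.00054 and 0.00056. The kit used for the libraries keeps strand, but whether the peak caller kept strand is not given in the sources used here. Reads of the 2 genes of a pair cannot be told apart in this list.

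**Figure D4:**
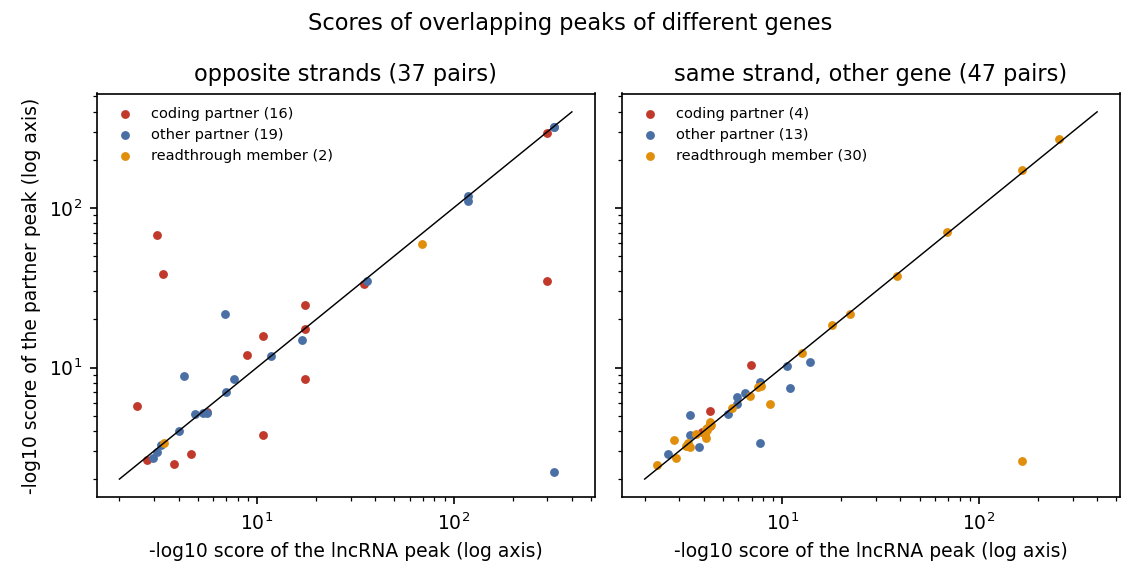
Each point is a pair of overlapping peaks, with the -log10 score of the member on the horizontal and of the partner on the vertical axis, both log axes, and scores of 0 drawn at 323. The left panel holds 37 opposite-strand pairs and the right panel 47 same-strand pairs with another gene, and the line marks equal scores. Scores, including 2 pairs at 0, were within 10% in 21 pairs on the left and 36 on the right, where 30 points are readthrough genes.

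Overlap with a peak of another gene on the same strand was found for 5.96% of all peaks and for 43 member peaks, 11.2% (8.40 to 14.7), against 3.98% (3.70 to 4.28) of protein-coding peaks. It was concentrated in genes named as a readthrough of neighbours, whose RNAs contain exons of both genes. Of the 28 peaks of these 20 genes, 27 (96.4%, 82.3 to 99.4) overlapped such a peak. Without readthrough genes, the share of members was 4.48% (2.78 to 7.16). HNRNPUL2-BSCL2 (1e-257) shared all 867 bases of its peak with HNRNPUL2 (1e-269). DNAAF4-CCPG1 (1e-166) shared 1354 bases with CCPG1 (1e-174), a receptor of selective autophagy at the endoplasmic reticulum. C1QTNF3-AMACR (7.9e-23) shared 586 bases with AMACR (2e-22). In 26 of the 30 readthrough pairs the -log10 scores were within 10%, and the share over all same-strand pairs of the list was not computed. Outside readthrough genes, 3 peaks of ARLNC1 and 2 of LINC-PINT, a p53-induced RNA, shared most of their bases with genes without a RefSeq match.

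Of the 215 members, 45 (20.9%) had every peak overlapped by a peak of another gene on either strand, against 8.07% of protein-coding genes and 25.2% of antisense and divergent lncRNAs. No overlapped peak was found in 157 members (73.0%, 66.7 to 78.5), against 82.5% and 62.3%. All 20 readthrough genes are among the 45, and neither share was computed without them. The 309 member peaks without any overlap had a median score of 4.7e-05, and 78 of them (25.2%, 20.7 to 30.4) reached the list median. By gene models, 307 member peaks (79.7%, 75.4 to 83.5) lay outside the span of any other protein-coding RefSeq gene. A span on the same strand was overlapped by at least 1 base by 48 peaks (12.5%), a span on the opposite strand by 27 (7.01%) and spans on both strands by 3. Predicted coding models are included in this count. All 28 readthrough peaks overlapped such a span, 27 of them on the same strand. Of the 48 peaks on the same strand, 32 overlapped a same-strand peak of another gene. Of the 307 outside, 24 still overlapped a listed peak of another gene, and in 2, of MIR762HG and LINC01232, that gene was protein-coding, with a peak wholly beyond its RefSeq span.

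By class of gene, the largest was that of the LINC symbols, with 205 peaks on 110 genes. In this class 20.5% (15.5 to 26.5) of peaks reached the list median, 4.39% (2.33 to 8.13) overlapped an opposite-strand peak, 1.46% a same-strand peak of another gene, and 87.3% (82.1 to 91.2) were on the minus strand. The 68 other lncRNAs, with 120 peaks, reached the list median in 36.7% (28.6 to 45.6) and overlapped on the opposite strand in 18.3% (12.4 to 26.2). The 5 snoRNA hosts had 10 peaks. SNHG8 (1e-35), SNHG7 (1.6e-11) and SNHG5 (2.8e-08) had a peak under the list median, and the smallest scores of SNHG29 and SNHG21 were 0.00068 and 0.0019. SNHG7 and SNHG8 were the hosts with opposite-strand overlap, with DIPK1B and PRSS12.

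The 12 microRNA hosts had 22 peaks, of which 7 reached the list median and 11 of the 21 inside the gene span were in its last 10%. MicroRNAs are cut from a hairpin in the host RNA, and the seed, bases 2 to 8 of the mature form, pairs with targets. No member peak (0 of 385) shared a base with a RefSeq hairpin. The share over the whole list was not computed, so this is not shown to be particular to members. Of 16 hairpins in 11 hosts, 6 lay within 1000 bases of a peak of the host, and in 4 of them the nearest peak was on the 3′ side. The mature forms of these 6 are given, from RefSeq, with miR-222-3p from the host of miR-221, and capitals mark the seed.
hsa-miR-34a-5p: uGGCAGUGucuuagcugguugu
hsa-miR-125b-5p: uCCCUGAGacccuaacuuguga
hsa-miR-221-3p: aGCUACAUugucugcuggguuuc
hsa-miR-222-3p: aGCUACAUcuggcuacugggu
hsa-miR-210-3p: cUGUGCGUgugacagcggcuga
hsa-miR-1915-3p: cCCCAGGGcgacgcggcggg
hsa-miR-762: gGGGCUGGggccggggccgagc

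Only miR-221-3p and miR-222-3p, which lie in 1 host, share a seed among these forms. The closest strong peak was that of MIR34AHG, host of the p53-induced miR-34a, where a peak of 988 bases at 2.5e-57 began 305 bases 3′ of the hairpin and a second peak, at 6.3e-16, followed. In MIR100HG the peak ran over 2 blocks of 357 and 4 bases, the hairpin of MIR125B1 lay between the blocks, and the short block was 529 bases 5′ of it. The hairpins of MIR100 and MIRLET7A2 were 51851 and 46144 bases from this peak. MIR1915HG had its weak start peak (0.00022) 259 bases 5′ of the hairpin, and its strongest peak (7.9e-76) farther off on the 3′ side. MIR222HG (0.00076) had a peak 376 bases 3′ of the MIR221 hairpin and 1234 bases from that of MIR222. MIR210HG, host of the hypoxia-induced miR-210, had its peak (0.00024) 584 bases 3′ of the hairpin, and MIR762HG (0.0017) 820 bases. A peak after the hairpin describes where the peak was called in poly(A) RNA and says nothing of processing.

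**Figure D5:**
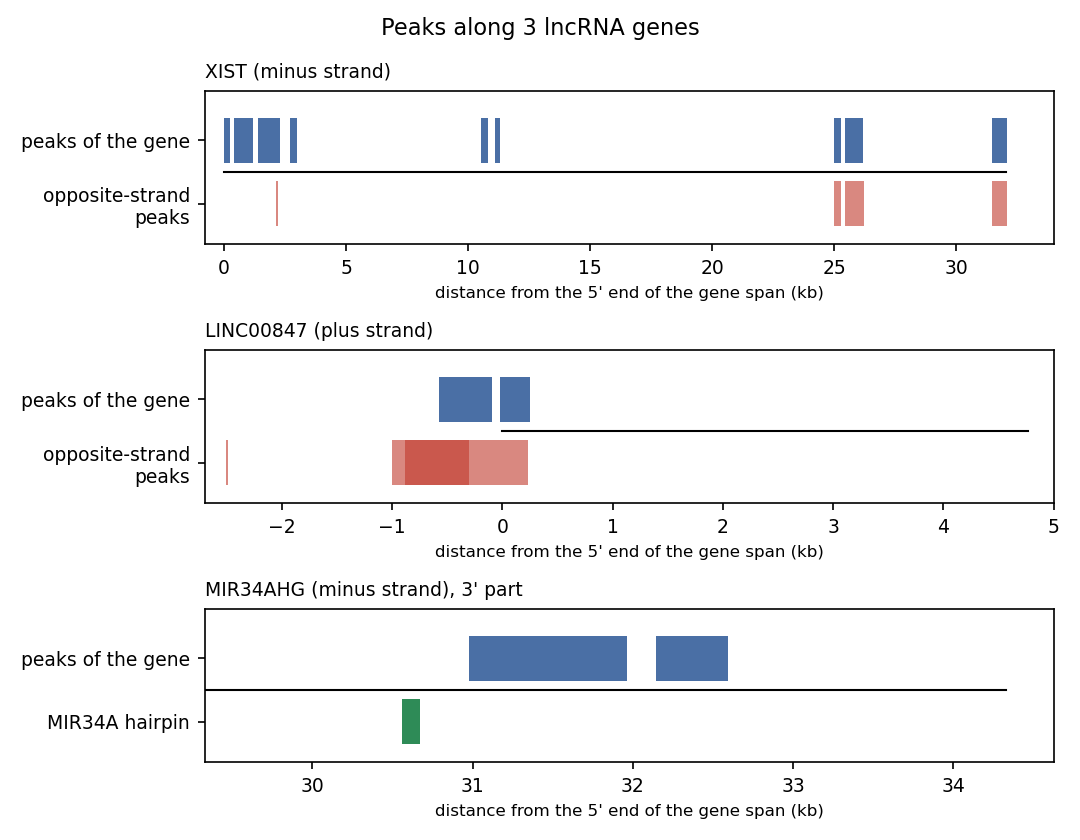
Listed peaks along XIST, LINC00847 and the 3′ part of MIR34AHG, by distance in kb from the 5′ end of the gene span (black line). Blue boxes are peaks of the gene, red boxes peaks on the opposite strand that overlap them, darker where peaks of HEIH overlap each other, and the green box is the MIR34A hairpin. XIST has 9 peaks, 4 with an opposite-strand peak, LINC00847 has 1 peak in 2 blocks under 2 peaks of HEIH, and both MIR34AHG peaks follow the hairpin.

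A list of 55 lncRNAs linked to breast cancer or TGF-β signalling held 16 members with a peak, 39 peaks in all. Matching was by symbol. Of the other 39 genes, TINCR had a peak but is protein-coding in RefSeq, and the rest had none under the symbol given in the list. THORLNC, a member with 1 peak at 0.00091, was not matched to the entry THOR and is not among the 16. The list was drawn up with earlier results of these data known. In 10 of the 16 the strongest peak reached the list median. On the minus strand were 12 of the 16, against 164 of all 215 members and 6624 of all 10140 gene IDs. The median of the smallest scores of the 16 was 6e-12, against 1.4e-05 over all 215 members and 4e-12 over all 10140 gene IDs. The 10 of 16 are 62.5% (38.6 to 81.5), near the 65.2% of protein-coding genes. After PCAT1 (1e-298), MIR100HG (3.2e-87) and LINC00511 (6.3e-36), the smallest scores were those of HOTAIR (1.6e-21), MIR4435-2HG (1.6e-18), FTX (2e-18), LUCAT1 (1.6e-15), FENDRR (2e-12), FIRRE (1e-11) and CASC9 (3e-10). ARLNC1 (3.2e-07), LINC-PINT (1.2e-06), CRNDE (1.1e-05), LINC00963 (4.9e-05), JPX (0.00054) and CASC2 (0.0034) did not reach the list median. Opposite-strand overlap touched 5 of the 16, namely PCAT1, FTX, JPX, LINC00963 and CASC2. Over all members it touched 31 of 215 (14.4%), and 12.3% of protein-coding genes. The difference was not tested. HOTAIR, FENDRR, LUCAT1, LINC00511, MIR100HG, MIR4435-2HG, CASC9 and CRNDE had no overlap on either strand, so that their scores were not shared with another listed peak.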

How the data were processed

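m6A-seq of MDA-MB-231 cells held 2 input and 2 IP libraries. The authors aligned reads with STAR to the GENCODE v33 transcriptome (hg38 per the labels), called peaks with exomePeak and combined the libraries into 1 deposited list, whose score column was read as a p-value (or FDR). The list gives no values per library, no depth and no fold enrichment.

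Ensembl IDs were matched without version to symbols (10103 of 10140 IDs) and symbols to RefSeq genes of GRCh38.p14 on the same chromosome (9093). Members were kept by biotype and suffix. Members, classes and gene lists were chosen with earlier results of these data known. Genes were named if among the 10 with the most peaks, the 10 with the smallest score, the 10 largest opposite-strand overlaps (ties kept, or going to the longest peak), or in fixed lists of snoRNA hosts, microRNA hosts and lncRNAs linked to breast cancer or TGF-β. The rule made an exception of XIST and TSIX, which were to stay unnamed. They, and the pairs with far apart scores, were chosen after their values were seen. Overlap needed 1 shared base of peak blocks. Scores of 0 were ranked at a -log10 of 323. No test was run. Python 3.11.15, pandas 2.3.3, numpy 2.4.6 and matplotlib 3.10.9 were used, and functions were checked on simulated data. Alternatives were a score limit, merging, parts of the list, suffix spelling, overlap rules and gene length.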

Additional observations from a re-analysis of the deposited data

How the results depend on the processing

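Of 95 values recomputed under 13 settings, 82 stayed within the interval of the value given (for counts, means and lengths, within 1.5 times) and 13 moved. With only peaks at or under the list median there were 107 peaks on 72 genes, fewer by construction, with an opposite-strand overlap of 15.0%, a minus-strand share of 86.0%, 7.95% in the first 10% of the span, a median length of 390 bases and 84.1% in 1 block. With only the strongest peak of each gene, 33.5% reached the list median, 13.0% overlapped on the opposite strand, 76.3% were on the minus strand and 87.4% were in 1 block. In spans of at least 10 kb the last 10% held 38.6%. Without readthrough genes same-strand overlap was 4.48%. Beyond the smaller counts, the cause of these changes was not tested. Merging, the first part of the list, the wider suffix rule, overlap of 50% of the shorter peak, whole peak spans, older symbols and leaving out XIST moved none of the values recomputed under them. Older symbols, readthrough genes and XIST, and all settings of same-strand overlap, were chosen after seeing the data. A match of biotypes by Ensembl ID alone was not run, because the RefSeq table used gave no Ensembl IDs. No paired analysis was possible because values of the 4 libraries had been merged into 1 score for each peak. Depth is unknown, so the limit it sets on weak peaks cannot be given.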
